A study of Homo sapiens with 6 samples.

Results

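The genes described here build cholesterol and fatty acids or control that synthesis. They were taken as the 33 rows of the deposited count table whose Ensembl gene identifiers carry the symbols of a list of sterol and fatty acid synthesis genes, out of 60605 genes in all. The sterol branch holds 22 of them and the fatty acid branch 11. All 33 passed the filter on low counts and were tested. RNA with poly(A) tails was sequenced from HuCCT-1, an established human line of cholangiocarcinoma, a bile duct cancer, grown in DMEM-F12 with 10% serum and antibiotics. The inhibitor group (3 libraries) received JNJ-64619178, which blocks the arginine methyltransferase PRMT5, at 6 nM for 4 days, and the control group (3 libraries) received an equal volume of the solvent DMSO for 4 days. All libraries come from this 1 line. Whether replicates were grown as separate cultures is not stated, and every p-value here therefore reflects library-to-library spread that could be technical. The question was how blocking PRMT5 changes transcript levels, answered by 1 comparison, inhibitor against DMSO. Gene positions are from GENCODE release 29 on GRCh38.

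Cholesterol is made from acetyl-CoA through mevalonate, isoprenoid units, squalene and lanosterol, and fatty acids are made from the same acetyl-CoA by carboxylation, repeated condensation, elongation and desaturation. Transcription of both branches is driven by the sterol regulatory element-binding proteins SREBP1 and SREBP2, which SCAP carries from the endoplasmic reticulum to the Golgi for cleavage when sterols are scarce, while INSIG proteins hold SCAP back when sterols are plentiful. Cells in serum can also take cholesterol and fatty acids from the medium, so the level of these transcripts is known to follow the lipid supply.

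Total gene counts per library ran from 23931991 to 30691914. Levels are CPM, each gene's count scaled to a common library size by TMM, which give each transcript as a share of the sequenced RNA, so less RNA per cell and fewer cells that express a gene cannot be told apart. The bile duct epithelial markers KRT7, KRT19, EPCAM, SOX9, KRT8 and KRT18 summed to 5308 to 5579 CPM with DMSO and 4229 to 4511 CPM under the inhibitor, and 4 of the 6 were called lower and 1 (SOX9) higher. The hepatocyte markers ALB, APOA1, APOB and CYP3A4 were each under 1 CPM and TTR was at 0, while SERPINA1 stood at 345 and 373 CPM. Summed leukocyte markers lay between 2.14 and 3.73 CPM, nearly all of it CD14, and fibroblast and endothelial markers summed to at most 1.67 and 1.33 CPM. The part of the marker shift in the results below was not tested.

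Among sterol and fatty acid synthesis genes, more were called lower than higher under the inhibitor, and no called change reached 1.5-fold. Of the 33 genes, 16 were called lower, 4 higher and 13 neither at an edgeR adjusted p under 0.05, or 48.5% and 12.1%, while 17.1% of the 17371 genes tested were called lower, 20.0% higher and 37.1% in either direction. The largest decrease was 1.49-fold, in the SREBP inhibitor INSIG1, and the largest increase was 1.36-fold, in LSS, which closes the sterol ring. The median log2 fold change over the 33 was -0.15, beside 0.001 over all genes tested. All 3 inhibitor libraries lay below all 3 DMSO libraries in 15 genes (22.2% of all genes tested did so) and above them in 5 (24.7% of all genes), so 20 of 33 did not overlap between groups, beside 47.0% of all genes.

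**Figure D1:**
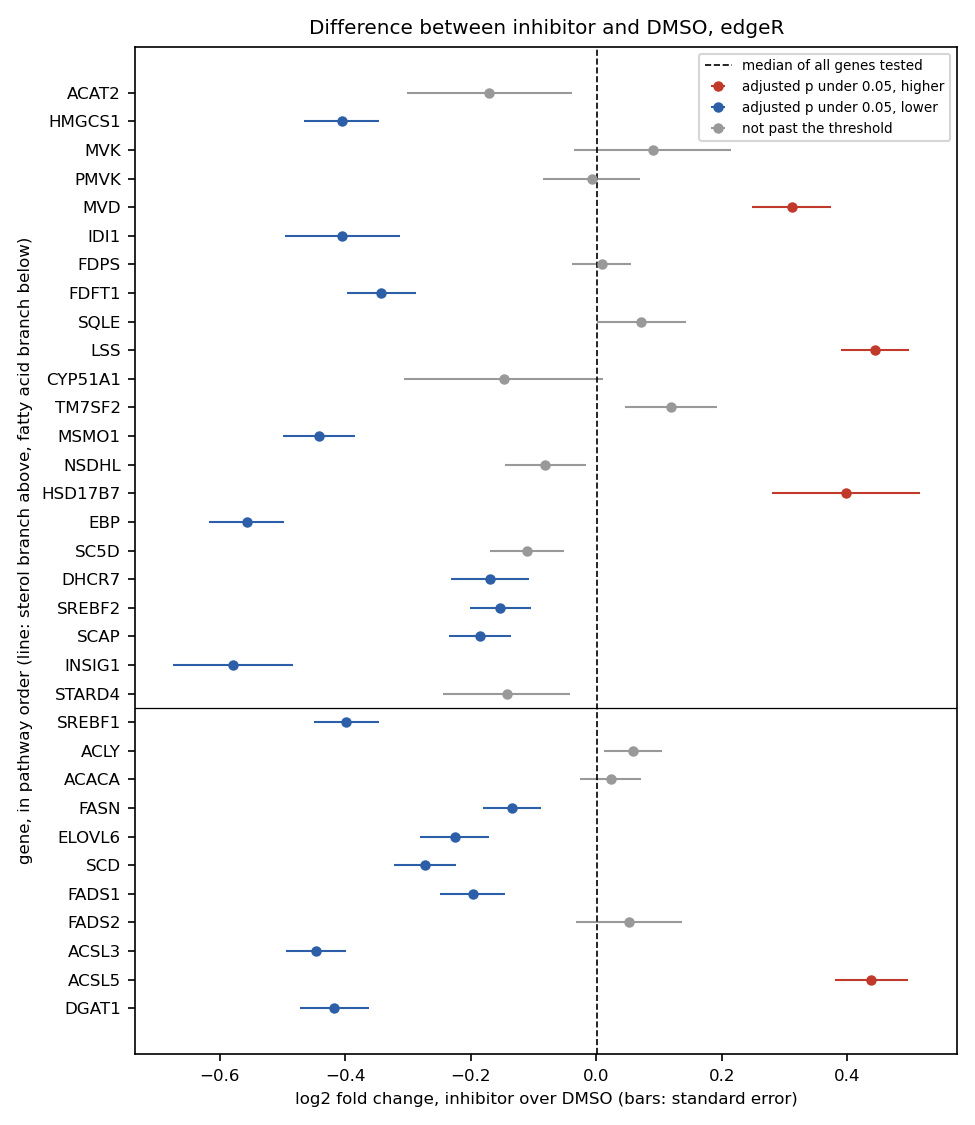
Log2 fold change of inhibitor over DMSO (horizontal axis, bars are standard errors from edgeR, 3 libraries a group) for the 33 genes in pathway order, with the sterol branch above the line and the fatty acid branch below it; colour shows which genes passed an adjusted p of 0.05, and the dashed line is the median of all genes tested. The 16 genes called lower lie between -0.58 and -0.13, and the 4 called higher between 0.31 and 0.44.

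The 4 regulators on the list were all called lower, beside 17.1% of all genes tested. INSIG1 (ENSG00000186480, chr7:155297776-155310235), the endoplasmic reticulum anchor that is itself a target of SREBP, stood at 25.5, 22.6 and 18.3 CPM in the DMSO libraries and at 15.1, 15.5 and 13.7 CPM under the inhibitor. The groups did not overlap, and the third DMSO library was the nearest to the inhibitor libraries. The log2 fold change was -0.58 (SE 0.10, adjusted p = 3.45e-05). SREBF1, which encodes SREBP1, the form that mainly drives fatty acid genes, gave 131, 127 and 116 CPM with DMSO against 89.4, 99.6 and 94.6 CPM, a 1.32-fold decrease (log2 change -0.40, SE 0.05, adjusted p = 1.5e-06). Counts per gene do not separate the SREBP1a and SREBP1c transcripts.

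SREBF2, which encodes SREBP2, the form that mainly drives sterol genes, fell less, from 105, 98.5 and 97.5 CPM to 91.8, 91.8 and 86.9 CPM (log2 change -0.15, SE 0.05, adjusted p = 0.0146). Its call was lost without DMSO replicate 1 (adjusted p = 0.0861) and without JNJ replicate 3 (adjusted p = 0.0963). The escort protein gene SCAP fell from 67.5, 67.6 and 66.2 CPM to 57.0, 60.5 and 59.3 CPM (log2 change -0.19, SE 0.05, adjusted p = 0.00427). Within each library the log2 ratio of SREBF1 to SREBF2 was 0.31 ± 0.06 (SD, n = 3) with DMSO and 0.07 ± 0.09 under the inhibitor, and its values did not overlap between groups (lowest 0.25 with DMSO, highest 0.12 under the inhibitor).

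SREBP proteins bind sterol response elements beside CCAAT boxes, which NF-Y binds, and GC boxes, which SP1 binds, and promoters of this pathway are known for that arrangement. Windows from 250 bases before to 50 bases after annotated starts (RefSeq, GRCh38.p14) were at hand for 28 of the 33 genes. ACAT2, FDFT1, SQLE, FASN and DGAT1 had none, so the shares of genes with a motif leave them out. The 6 below are shown because SREBF2 and INSIG1 are regulators that fell, MSMO1 is an enzyme that fell, LSS and MVD are enzymes that rose, and SCD had the highest level per kilobase of the group. Capitals mark matches on either strand to the sterol response element TCACNCCAC or its shorter form TCACNCCA, to the E-box CACGTG and to the CCAAT box (ATTGG on the other strand). The windows lie at chr22:41832855-41833154 (plus strand) for SREBF2, chr7:155297628-155297927 (plus) for INSIG1, chr4:165327419-165327718 (plus) for MSMO1, chr21:46228725-46229024 (minus) for LSS, chr16:88663042-88663341 (minus) for MVD and chr10:100346983-100347282 (plus) for SCD.
SREBF2: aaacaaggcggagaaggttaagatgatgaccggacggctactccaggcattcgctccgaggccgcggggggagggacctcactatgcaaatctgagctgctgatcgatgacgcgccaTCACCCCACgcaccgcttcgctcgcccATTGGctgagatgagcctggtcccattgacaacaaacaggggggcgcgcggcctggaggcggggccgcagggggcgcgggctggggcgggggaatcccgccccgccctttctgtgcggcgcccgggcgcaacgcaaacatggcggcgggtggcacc
INSIG1: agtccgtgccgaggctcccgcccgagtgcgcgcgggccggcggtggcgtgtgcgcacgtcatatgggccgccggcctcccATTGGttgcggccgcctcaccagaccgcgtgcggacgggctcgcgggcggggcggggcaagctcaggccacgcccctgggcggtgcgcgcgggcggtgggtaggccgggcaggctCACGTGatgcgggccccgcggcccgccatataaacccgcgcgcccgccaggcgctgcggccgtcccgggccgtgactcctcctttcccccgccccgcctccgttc
MSMO1: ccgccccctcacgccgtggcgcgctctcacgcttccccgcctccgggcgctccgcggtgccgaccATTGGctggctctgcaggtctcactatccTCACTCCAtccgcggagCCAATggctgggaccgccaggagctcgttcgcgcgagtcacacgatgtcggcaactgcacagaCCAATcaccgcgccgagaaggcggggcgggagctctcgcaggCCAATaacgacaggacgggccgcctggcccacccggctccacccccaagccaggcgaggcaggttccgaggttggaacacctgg
LSS: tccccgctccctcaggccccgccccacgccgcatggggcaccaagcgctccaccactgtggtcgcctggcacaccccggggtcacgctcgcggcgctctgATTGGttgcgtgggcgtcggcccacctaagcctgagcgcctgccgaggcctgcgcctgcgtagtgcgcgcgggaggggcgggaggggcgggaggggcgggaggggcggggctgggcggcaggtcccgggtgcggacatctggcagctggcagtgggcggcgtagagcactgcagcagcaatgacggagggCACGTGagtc
MVD: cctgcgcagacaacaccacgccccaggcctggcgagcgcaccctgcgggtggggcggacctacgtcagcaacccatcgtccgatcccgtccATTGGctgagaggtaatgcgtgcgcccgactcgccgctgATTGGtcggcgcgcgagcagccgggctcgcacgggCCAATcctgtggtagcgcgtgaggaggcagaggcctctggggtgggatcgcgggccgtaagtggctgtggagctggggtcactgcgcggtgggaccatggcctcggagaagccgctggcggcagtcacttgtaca
SCD: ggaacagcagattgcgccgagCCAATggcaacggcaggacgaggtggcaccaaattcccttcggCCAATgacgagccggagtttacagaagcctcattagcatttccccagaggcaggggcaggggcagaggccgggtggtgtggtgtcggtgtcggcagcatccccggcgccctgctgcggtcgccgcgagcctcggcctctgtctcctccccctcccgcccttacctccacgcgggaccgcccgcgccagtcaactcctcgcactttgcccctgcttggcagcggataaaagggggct

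TCACNCCAC matched in 1 of the 28 genes (3.57%, beside 1.44% of the 10547 protein-coding genes tested that have such a window), SREBF2, beginning 133 bases before the start, with a CCAAT box beginning 106 bases before it. The shorter form, which contains 1 fixed base fewer and is found wherever the longer one is, was also present in MSMO1 (156 bases before the start) and in MVK, in 3 of 28 genes or 10.7%, beside 4.73% of the same protein-coding genes. INSIG1 held an E-box 55 bases and a CCAAT box 170 bases before its start. MVD, which rose, held 3 CCAAT boxes, and LSS, which also rose, held 1, with an E-box 40 bases after its start.

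A CCAAT box was present in 84.2% of the sterol branch (16 of 19) and 55.6% of the fatty acid branch (5 of 9), beside 42.9% of those protein-coding genes. The GC box GGGCGG was present in 94.7% and 88.9%, beside 76.5%, and the E-box in 21.1% and 0 of 9, beside 12.5%. By direction, 9 of 13 genes called lower, 3 of 4 called higher and 9 of 11 not called held a CCAAT box, so genes with it were found on each side. These matches are letters in a short window, in 38 windows of 28 genes, and say nothing of binding in these cells. Elements with other letters or outside these windows were not searched for, so a gene without a match may still hold one.

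**Figure D2:**
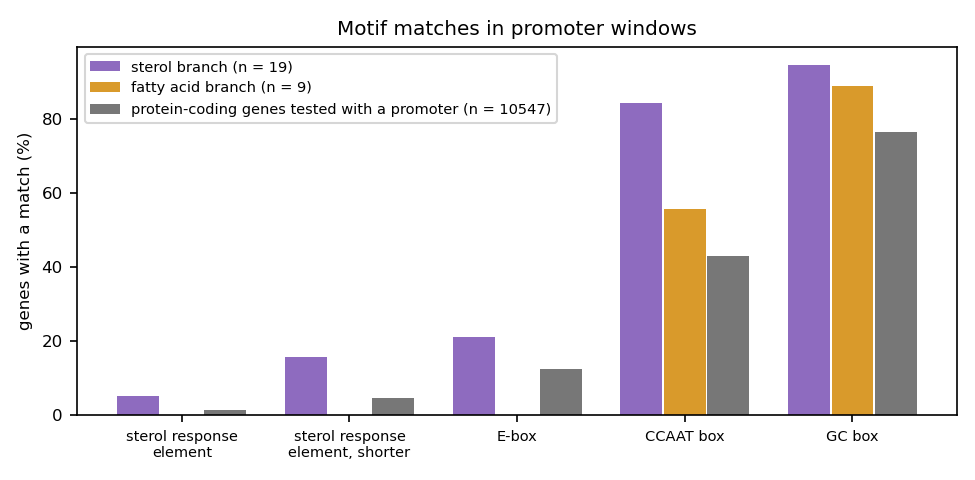
Percent of genes (vertical axis) with at least 1 match to each motif in promoter windows, for the sterol branch, the fatty acid branch and the protein-coding genes tested that have a window. CCAAT boxes stand at 84.2%, 55.6% and 42.9%.

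Along the sterol branch the genes went in different directions at neighbouring steps. At the entry, HMGCS1, which makes HMG-CoA, fell from 57.2, 55.6 and 49.6 CPM to 40.5, 42.9 and 39.0 CPM (log2 change -0.41, SE 0.06, adjusted p = 7.79e-06). ACAT2, the cytosolic thiolase before it, was scarce, at 5.36 to 5.87 CPM with DMSO and 4.51 to 5.55 CPM under the inhibitor, and did not pass (adjusted p = 0.338). It shares 397 exonic bases with TCP1 on the opposite strand, which rose from 90.1 to 108 CPM. On that strand it also shares 1141 with SOD2 and 1458 with SOD2-OT1, for which no fitted values were at hand. The part of reads from these genes in the count of ACAT2 was not tested.

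Among the enzymes that turn mevalonate into isoprenoid units, the decarboxylase MVD rose, from 23.3, 22.4 and 22.8 CPM to 28.8, 27.5 and 28.9 CPM (log2 change 0.31, SE 0.06, adjusted p = 0.000367). The kinases before it, MVK (log2 change 0.09, adjusted p = 0.616) and PMVK (-0.01, adjusted p = 0.956), did not pass, with overlapping libraries. IDI1, the isomerase directly after MVD, fell from 15.7, 15.1 and 13.0 CPM to 11.3, 10.5 and 11.3 CPM (log2 change -0.40, SE 0.09, adjusted p = 0.00104). FDPS, the synthase that joins isoprenoid units to farnesyl diphosphate, stood at 112 ± 1.05 CPM (SD, n = 3) with DMSO and 113 ± 5.12 CPM under the inhibitor (log2 change 0.01, SE 0.05, adjusted p = 0.911). Each of the 8 FDPS pseudogenes looked up held 14 counts or fewer over the 6 libraries, beside 2627 to 3461 counts per library for FDPS itself. RUSC1-AS1, which shares 693 exonic bases with FDPS on the opposite strand, fell from 4.44 to 3.01 CPM (adjusted p = 0.0198).

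The 3 genes from farnesyl diphosphate to lanosterol went 3 ways. FDFT1, the squalene synthase, fell from 55.2, 53.8 and 51.9 CPM to 40.3, 44.4 and 42.0 CPM (log2 change -0.34, SE 0.05, adjusted p = 2.2e-05). SQLE, the squalene epoxidase and a rate-controlling step, did not pass, at 26.8 to 31.9 CPM with DMSO and 28.8 to 33.2 CPM under the inhibitor (log2 change 0.07, SE 0.07, adjusted p = 0.461). LSS (ENSG00000160285, chr21:46188141-46228824), the lanosterol synthase, rose from 50.2, 49.6 and 45.6 CPM to 64.4, 69.1 and 64.1 CPM (log2 change 0.44, SE 0.05, adjusted p = 4.89e-07). LSS and MVD thus lay above DMSO in all 3 inhibitor libraries, while HMGCS1, IDI1 and FDFT1 of the same pathway lay below DMSO in all 3.

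Among the 8 enzymes after lanosterol, 3 fell (37.5%, beside 17.1% of all genes tested), 1 rose (12.5%, beside 20.0%) and 4 did not pass. EBP (ENSG00000147155, chrX:48521158-48528716), the sterol isomerase, had the largest decrease of any enzyme of the group, from 55.2, 52.5 and 51.5 CPM to 32.9, 38.2 and 36.9 CPM (log2 change -0.56, SE 0.06, adjusted p = 6.12e-08). MSMO1, a C4-methyl sterol oxidase, fell from 48.8, 51.9 and 47.1 CPM to 34.8, 37.9 and 35.9 CPM (log2 change -0.44, SE 0.06, adjusted p = 1.21e-06). In both genes every inhibitor library lay below every DMSO library.

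DHCR7, which carries out the last reduction to cholesterol in one route, gave 62.2, 58.0 and 50.9 CPM with DMSO and 49.3, 52.6 and 50.1 CPM under the inhibitor. It was called lower (log2 change -0.17, SE 0.06, adjusted p = 0.0348) although the groups overlapped. That call was lost in 5 alternatives, which were DESeq2 (adjusted p = 0.0507) and the fits without DMSO replicate 1 (0.231, log2 fold change -0.11), DMSO replicate 2 (0.101), JNJ replicate 1 (0.0907) or JNJ replicate 3 (0.0997). HSD17B7, the 3-keto sterol reductase, rose from 7.98, 8.98 and 6.20 CPM to 10.5, 9.97 and 9.96 CPM (log2 change 0.40, SE 0.12, adjusted p = 0.00961). Without DMSO replicate 3, its lowest library, the log2 fold change was 0.25 and the adjusted p was 0.0962. Its transcribed copy HSD17B7P2, which could take some of its reads, stood at 1.87 to 2.73 CPM over the 6 libraries and did not pass (adjusted p = 0.712).

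The other 4 enzymes after lanosterol did not pass. CYP51A1, the lanosterol demethylase, was at 4.59 to 5.63 CPM with DMSO and 3.46 to 5.61 CPM under the inhibitor, and GENCODE release 29 places another gene model over 2844 of its exonic bases on the same strand, and how reads there were assigned is unknown. NSDHL, the C4 decarboxylase (log2 change -0.08, adjusted p = 0.353), and SC5D, the C5 desaturase (-0.11, adjusted p = 0.148), had overlapping libraries. SC5D passed without DMSO replicate 3 (adjusted p = 0.0387) and with upper-quartile scaling (adjusted p = 0.0262). TM7SF2, a sterol C14 reductase, was above DMSO in all 3 inhibitor libraries, at 18.4 to 18.7 CPM against 16.1 to 17.5 CPM, but did not pass (log2 change 0.12, adjusted p = 0.22), and it shares 16 exonic bases with VPS51 on the same strand, which rose from 96.8 to 119 CPM. The sterol carrier gene STARD4 did not pass either (log2 change -0.14, adjusted p = 0.293).

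**Figure D3:**
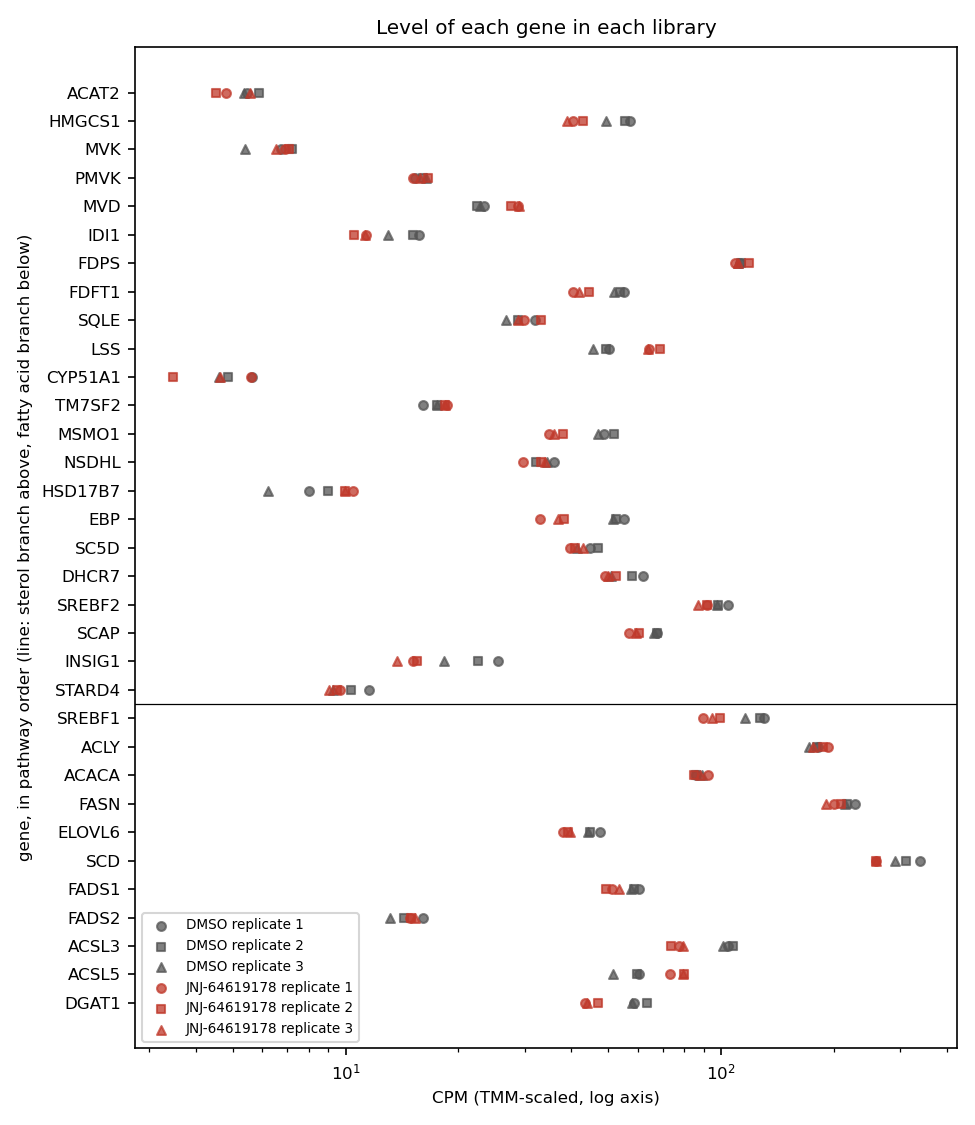
CPM of the 33 genes in each of the 6 libraries (horizontal log axis), in pathway order, with grey symbols for DMSO and red symbols for the inhibitor, and 1 symbol shape for each replicate number. LSS, MVD, HSD17B7, ACSL5 and TM7SF2 have all red symbols to the right of all grey ones, and 15 genes, EBP and INSIG1 among them, have them all to the left.

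In the fatty acid branch 7 of 11 genes were called lower (63.6%, beside 17.1% of all genes tested) and 1 higher (9.09%, beside 20.0%). Of the 3 core enzymes, 1 was called lower. ACLY, which splits citrate into acetyl-CoA, stood at 178 ± 5.14 CPM with DMSO and 185 ± 8.78 CPM under the inhibitor (n = 3 each, log2 fold change 0.06, adjusted p = 0.348), and ACACA, the acetyl-CoA carboxylase, at 86.9 ± 1.83 and 88.3 ± 3.7 CPM (0.02, adjusted p = 0.747). FASN, the fatty acid synthase, gave 228, 217 and 215 CPM with DMSO against 201, 209.7 and 191 CPM (log2 change -0.13, SE 0.05, adjusted p = 0.0249), and lost its call without DMSO replicate 1 (adjusted p = 0.118), DMSO replicate 2 (0.0511) or JNJ replicate 3 (0.167).

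Of the 4 elongation and desaturation genes, 3 were called lower, beside 17.1% of all genes tested. SCD, the stearoyl-CoA desaturase that makes monounsaturated fatty acids, was at 339, 311 and 291 CPM with DMSO and 259, 259.8 and 258 CPM under the inhibitor (log2 change -0.27, SE 0.05, adjusted p = 0.000104), so the inhibitor libraries were almost equal and the DMSO libraries spread. ELOVL6, the elongase of saturated chains, fell from 47.7, 44.7 and 44.3 CPM to 38.0, 39.3 and 39.7 CPM (log2 change -0.23, SE 0.05, adjusted p = 0.00213). FADS1, the delta-5 desaturase, fell from 60.4, 58.8 and 57.6 CPM to 51.2, 49.5 and 53.7 CPM (log2 change -0.20, SE 0.05, adjusted p = 0.00407). FADS2, the delta-6 desaturase, was at 13.1 to 16.1 CPM with DMSO and 14.8 to 15.3 CPM under the inhibitor and did not pass (log2 change 0.05, adjusted p = 0.67). The annotated span of FADS1 lies within that of FADS2 on chromosome 11, on the opposite strand, and the pair share 490 exonic bases in GENCODE release 29, so their counts are not fully separate where the strand setting is unknown.

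The 2 acyl-CoA synthetases of the list moved in opposite directions. ACSL3 (ENSG00000123983, chr2:222860934-222944639), which sits on the endoplasmic reticulum and lipid droplets, fell from 104, 108 and 102 CPM to 77.6, 73.7 and 79.1 CPM (log2 change -0.45, SE 0.05, adjusted p = 7.08e-08), and ACSL5 (ENSG00000197142, chr10:112374018-112428380), found on mitochondria and the endoplasmic reticulum, rose from 60.5, 59.7 and 51.7 CPM to 73.4, 79.8 and 79.5 CPM (log2 change 0.44, SE 0.06, adjusted p = 1.76e-06). Within each library the log2 ratio of ACSL5 to ACSL3 was -0.87 ± 0.10 (SD, n = 3) with DMSO and 0.01 ± 0.10 under the inhibitor. That its values did not overlap follows from the levels above, as neither gene overlapped between groups and they moved in opposite directions. Exons of ACSL5 overlap those of ZDHHC6 on the opposite strand, which rose from 91.0 to 107 CPM, and of the antisense transcript AL157786.1, which fell from 1.62 to 0.711 CPM. The part of these neighbours in its count was not tested.

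DGAT1, which attaches the last acyl chain of triglycerides, fell from 58.6, 63.5 and 57.9 CPM to 43.5, 47.1 and 44.0 CPM (log2 change -0.42, SE 0.06, adjusted p = 1.61e-06). HSF1, which shares 139 exonic bases with it on the opposite strand, rose from 111 to 178 CPM. The gene model AC233992.1 shares 444 exonic bases with DGAT1 on the same strand. The part of either in the count of DGAT1 was not tested.

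Per kilobase of annotated exon, the levels with DMSO ran from 58.4 CPM per kb for SCD down to 0.995 CPM per kb for MVK. SCD was followed by ACLY (34.1), FDPS (30.2), FASN (23.5) and EBP (22.0), the last pair lying within 2 SDs of each other. ACAT2, CYP51A1, FADS2, HSD17B7 and STARD4 were the lowest besides MVK, all under 2 CPM per kb. With the inhibitor EBP fell to 14.9 CPM per kb, and ACSL5, at 13.5 CPM per kb with DMSO, rose to 18.3, above ACSL3, which went from 14.5 to 10.6. The exon lengths are those of GENCODE release 29 and may differ from those used for counting. For ACAT2 and CYP51A1 much of that length is shared with other gene models, and the effect on their levels was not tested. HMGCS1, MVK, IDI1, FDFT1, LSS, CYP51A1, SREBF2, STARD4, SREBF1, ACLY and ACSL3 also share exonic bases with genes on the opposite strand. The part of those genes in these counts was not tested.

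Each branch held genes called lower, genes called higher and genes that did not pass. Of all genes tested, 17.1% were called lower and 20.0% higher. In the sterol branch 9 of 22 genes were called lower (40.9%) and 3 higher (13.6%), with a median log2 fold change of -0.15 and a range of -0.58 to 0.44. The 18 sterol enzymes alone, without regulators and STARD4, had 6 lower (33.3%), 3 higher (16.7%) and a median of -0.10. In the fatty acid branch 7 of 11 were lower (63.6%) and 1 higher (9.09%), with a median of -0.20 and a range of -0.45 to 0.44. The difference between the medians of the branches was not tested. Without DMSO replicate 1 the sterol median was -0.09.

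Summed over genes, the fatty acid branch gave 1313, 1270.3 and 1209 CPM with DMSO and 1133, 1146 and 1119 CPM under the inhibitor, with no overlap. The sterol branch gave 860, 840 and 793 CPM against 745, 786 and 755 CPM, with the third DMSO library close to the second inhibitor library. The 18 sterol enzymes alone gave 650, 641 and 601 CPM against 572, 609 and 586 CPM, and here the groups overlapped. The sums weigh abundant genes such as SCD and FDPS most, so the mean of each gene's centred log2 CPM was computed as well. For the sterol branch it was 0.12, 0.09 and -0.04 with DMSO against -0.06, -0.04 and -0.06, and for the fatty acid branch 0.12, 0.08 and 0.005 against -0.08, -0.06 and -0.07.

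**Figure D4:**
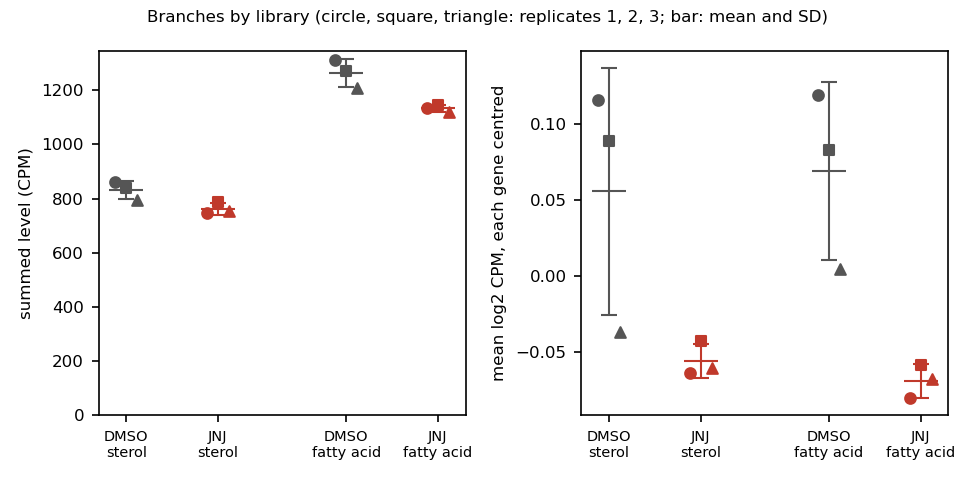
Summed CPM (left panel) and mean log2 CPM after centring each gene on its mean over 6 libraries (right panel) of the sterol and fatty acid branches, with 1 symbol per library and bars for mean and SD (n = 3 a group). The third DMSO library, the grey triangle, lies closest to the inhibitor libraries in both branches.

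The order of the 3 DMSO libraries was replicate 1 above 2 above 3 in 19 of the 33 genes, and the order was not tested. DMSO replicate 3 had the lowest level of the 3 DMSO libraries in 28 of the 33 genes (18 of 22 in the sterol branch and 10 of 11 in the fatty acid branch), while it was the lowest in 35.7% of all genes tested. DMSO replicate 1 was the highest in 21 of 33, and in 33.3% of all genes tested. In every gene called lower, DMSO replicate 3 was the lowest of the 3 DMSO libraries. Leaving it out gave a larger decrease in 16 of those 16, such as -0.71 for INSIG1, which follows from that order. Without DMSO replicate 1 the decrease was smaller in 12 of the 16, such as -0.47 for INSIG1, and larger in MSMO1, SCAP, ACSL3 and DGAT1. Among the 20 called genes, HSD17B7 lost its call without DMSO replicate 3.

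The wider pathway was read from 5 lists. Among genes that handle SREBP in the endoplasmic reticulum or the Golgi, 5 of 14 were lower (35.7%, beside 17.1% of all genes tested) and 3 higher (21.4%, beside 20.0%). AUP1, a lipid droplet protein that takes part in sterol-dependent degradation, rose from 151 to 268 CPM (log2 change 0.83, SE 0.05, adjusted p = 6.06e-12), and TMED2 (0.14) and SYVN1 (0.13) rose slightly. PGRMC1 (-0.34), ERLIN1 (-0.27) and UBXN8 (-0.51), proteins of the endoplasmic reticulum membrane, fell. In the branches that leave the mevalonate pathway for dolichol, ubiquinone and protein prenylation, 4 of 14 tested were lower (28.6%) and 3 higher (21.4%, near the share of all genes). The prenyltransferase subunit RABGGTA (0.35), DPM1 (0.27) and DHDDS (0.24), both of the dolichol route, rose, and ICMT (-0.28), PGGT1B (-0.29) and FNTA (-0.14), all of protein prenylation, fell.

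In cholesterol transport, esterification and LXR signalling, 4 of 19 tested were lower and 4 higher, shares near those of all genes. The lysosomal lipase LIPA (-0.34), the lysosomal exporter NPC1 (-0.25) and the lipoprotein receptor SCARB1 (-0.32) fell, and NPC2 (0.30), NR1H2 (0.22) and NR1H3 (0.37), the last pair encoding LXR receptors, rose. Among the other genes of fatty acid supply, elongation and glycerolipids, 6 of 31 tested were lower and 7 higher, again near the background. ACSS2 (0.36), which makes acetyl-CoA from acetate, MLXIP (0.30) and AGPAT2 (0.27) rose, and HACD2 (-0.27), ACSL4 (-0.27) and MID1IP1 (-0.20) fell. Among fatty acid oxidation genes 3 of 25 were lower (12%, beside 17.1% of all genes) and 6 higher (24%, beside 20.0%). The genes named by the rule were PPARGC1B (0.53), PPARA (0.26) and CPT1B (0.69) higher and ECI1 (-0.56), DECR1 (-0.29) and ETFDH (-0.19) lower. The medians of the 5 lists lay between -0.07 and 0.09.

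**Figure D5:**
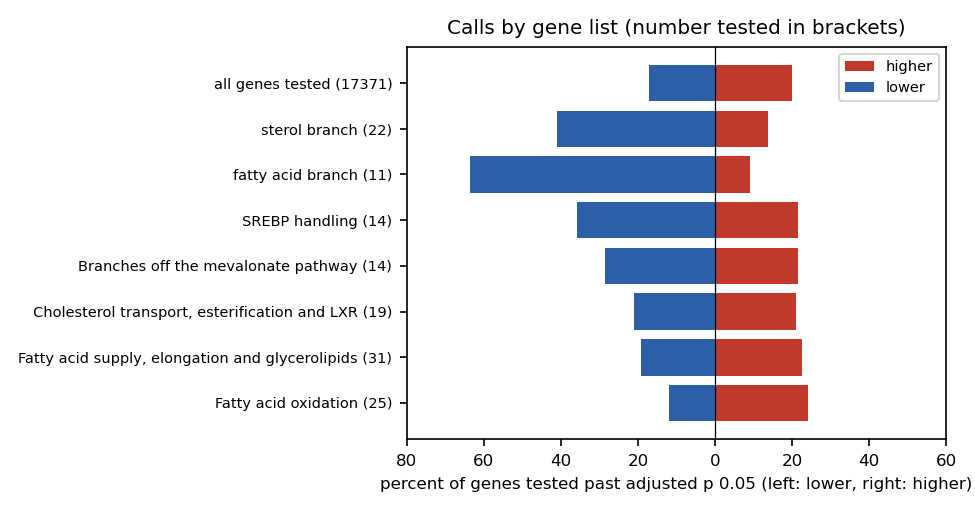
Percent of tested genes past an adjusted p of 0.05 (horizontal axis, lower to the left, higher to the right) for all genes, for the sterol and fatty acid branches and for the 5 lists of other pathway genes, with the number tested in brackets. The fatty acid branch has 63.6% lower and the sterol branch 40.9%, beside 17.1% of all genes.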

How the data were processed

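The authors deposited 1 table of unnormalized gene counts covering the 6 libraries. Tools named in the submitters' processing notes, without their roles, are STAR 2.7.9a, featureCounts 1.6.0, FastQC 0.11.8, limma and edgeR. Those notes also give a mouse build, GRCm39, whereas the 60649 rows have human identifiers, which leaves the true build unknown. Per the labels' protocols the libraries were stranded, but whether counting used strand is unknown from these sources. After 44 repeated rows with a total of 0 were dropped, symbols came from the reference table of gene names (60463 of 60605 genes). Genes kept by filterByExpr (minimum count 10, minimum total 15) were scaled by TMM and compared with edgeR 4.0.16 (glmQLFit, glmQLFTest, group alone), with Benjamini-Hochberg adjustment over all 17371 genes at 0.05. The standard error was the log2 fold change divided by the square root of F. All genes of the list were named. From each of the 5 other lists, up to the 3 genes of smallest p in each direction with at least 1 CPM were named. The genes and lists were chosen with earlier results of these data known. Positions and exon lengths are from GENCODE release 29 (GRCh38), promoters from RefSeq. Every pair of replicates exceeded sampling noise (chi-square over its degrees of freedom, 2.56 to 8.09). The code was tested on simulated data, where 29 of 64 changes of 1.25-fold (45.3%), 48 of 66 of 1.5-fold (72.7%) and 56 of 65 of 2-fold (86.2%) passed. Far fewer genes were changed there than were called in these data, and they were drawn from all genes tested. The shares are therefore not rates for the genes of the list. A gene that did not pass may still have changed by a small amount. Alternatives were DESeq2 1.42.0, limma-voom (limma 3.58.1), RLE and upper-quartile scaling, 2 other filters, the replicate block and leaving out each library. R 4.3.3 was used.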

Additional observations from a re-analysis of the deposited data

How the results depend on the processing

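Over 13 alternatives, 16 of the 20 called genes kept their call and direction in every one, and 12 of the 13 genes not called stayed so. The 4 that lost a call were DHCR7, SREBF2, FASN and HSD17B7, and SC5D gained one. With upper-quartile scaling, which moved the median of all genes from 0.001 to -0.06, the branch medians were -0.20 (sterol) and -0.26 (fatty acid), 2800 genes were called higher and 4099 lower (40.6% of the calls higher, against 53.9% with TMM), and FDPS (-0.050), ACLY (-2.89e-05), ACACA (-0.036) and FADS2 (-0.0063), none called, changed sign. FDPS was -0.0030 with no filter on low counts. Leaving out 1 library at a time, the sterol median ran from -0.19 to -0.087, and signs changed for MVK (-0.037 to 0.17), PMVK (-0.044 to 0.025), FDPS (-0.029 to 0.036), CYP51A1 (-0.32 to 0.028), ACACA (-0.0083 to 0.052) and FADS2 (-0.028 to 0.13), none of them called. The cause of these changes was not tested. The libraries share replicate numbers, but the deviations of same-numbered libraries correlated at -0.02, -0.01 and 0.002, so the numbers show no pairing, and with the replicate block 6132 genes were called instead of 6448 and no call among the 33 changed. Low counts limit the scarcest genes: CYP51A1 had 791 counts over all 6 libraries. The parts of depth and of the gene model that overlaps it in that number were not tested.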
